A study of Mus musculus with 2 samples.

Results

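Condensin is the ring-shaped complex that folds chromatin into mitotic chromosomes, and its 8 subunit genes were read here in mouse embryonic stem cells. The members were taken by symbol from a table of protein-coding genes, and all 8 were present among its 15127 listed genes. They were the shared ATPase genes Smc2 and Smc4, the condensin I genes Ncaph, Ncapg and Ncapd2, and the condensin II genes Ncaph2, Ncapg2 and Ncapd3. The cells were pSM44, a female line from a 129 by castaneus F1 cross, in which the Xist gene of the 129 allele is driven from its own locus by a tetracycline-inducible promoter. All were grown without serum in 2i/LIF medium and treated with doxycycline at 2 μg/mL for 24 h. Poly(A) RNA from 2 libraries of this single group was sequenced, but the deposited counts formed 1 column with no library named, so each gene had 1 value. No untreated cells were analysed here, and nothing below measures a response to doxycycline or Xist.

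Each condensin holds 5 subunits. Smc2 and Smc4 form a V-shaped pair of ATPases, a kleisin subunit closes the ring between their heads, and 2 subunits built of HEAT repeats bind the kleisin and DNA. Condensin I and condensin II share the Smc pair and differ in the other 3 subunits. Condensin II resides in the nucleus during interphase and starts compaction in prophase, whereas condensin I reaches the chromosomes after the nuclear envelope breaks down. Embryonic stem cells divide rapidly, and loss of condensin is known to impair their survival.

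The column summed to 10017978 counts. The intervals below are exact 95% Poisson intervals or, for ratios, exact conditional binomial intervals, and they cover counting error only. They treat reads as independent, so they are too narrow where several reads copy 1 molecule. Of 9 stem cell markers taken for the check of the label, 8 were listed. All 8 were at CPM 100 or more, where 15.5% of the listed genes stood (CPM is the count per 1000000 counts of the column). The marker lists, like the others, were chosen with earlier results of these data known. Sox2, which lies inside the annotated gene Sox2ot, was not listed. Markers of primed epiblast, fibroblasts, trophoblast and endoderm had summed levels of 15.9, 39.03, 11.9 and 10.2 CPM, with 4 of 7 fibroblast markers and 1 of 4 endoderm markers not listed, against 8548 CPM for the stem cell markers, of which Dppa5a gave 4716. Thy1 gave 26.7 of the fibroblast sum and was above the median of all listed genes, 18.3 CPM. The part of such cells in the condensin values was not tested.

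All 8 condensin genes were at CPM 1 or more, where 80.1% of the listed genes also stood. At CPM 100 or more stood 6 of the 8, against 15.5% of the listed genes. Ncapg2 and Ncapd3 were the members below that level. Together the 8 genes took up 0.156% of the column (15622 counts, exact binomial 95% interval 0.154 to 0.158). Their median was 178 CPM, against 18.3 CPM over all listed genes. Fewer cells of a kind and less RNA per cell cannot be told apart in such a bulk sample.

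**Figure D1:**
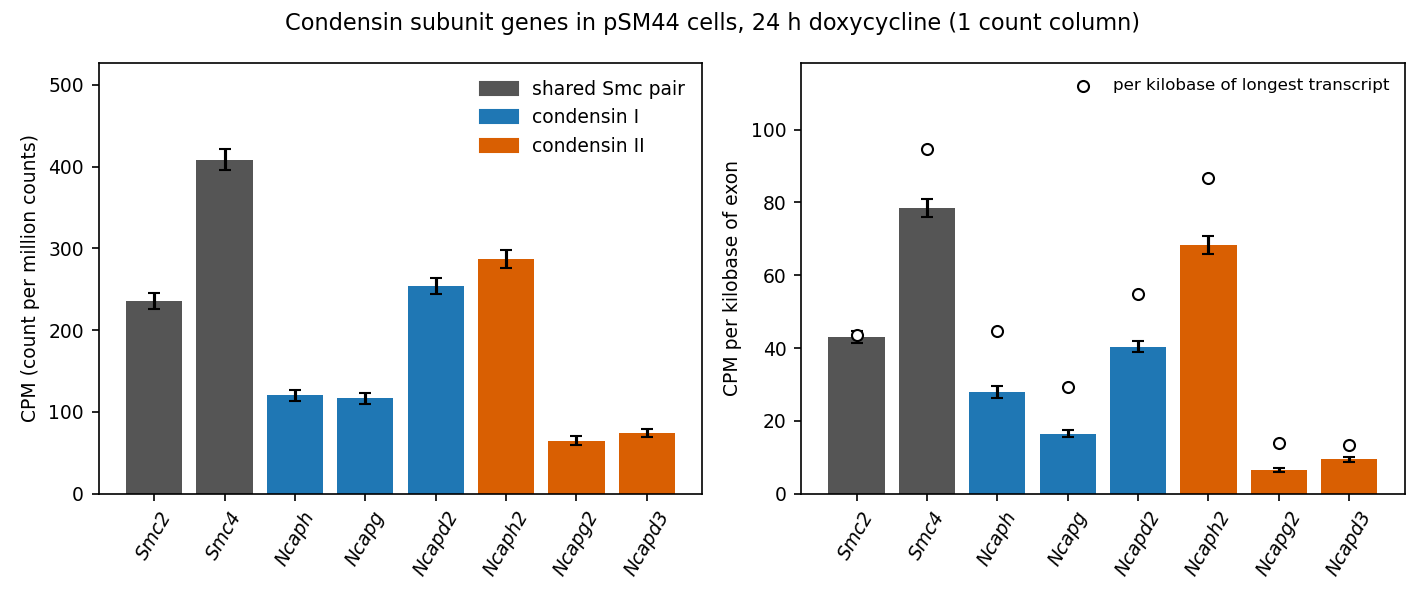
Levels of the 8 condensin genes in the single count column, as CPM (left) and as CPM per kilobase of annotated exon (right). Bars are coloured by complex and carry 95% Poisson intervals, and open circles give the level per kilobase of the longest annotated transcript. Smc4 and Ncaph2 stand highest on the right, and Ncapg2 and Ncapd3 lowest.

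The shared ATPase genes were both abundant, with Smc4 above Smc2. Smc4 (chromosome 3, 69004738 to 69034623, plus strand, GRCm38) had 4093 counts, or 409 CPM (396 to 421). Smc2 (chromosome 4, 52439243 to 52488260, plus strand) had 2361 counts, or 236 CPM (226 to 245). Counts grow with transcript length, so levels of different genes are compared per kilobase, here of the union of all exons that GENCODE M21 annotates. Whether reads were counted over exons or over whole genes is not stated. The rows of the file are ordered by count per base of gene span. The main ratios among the members are therefore also given per kilobase of gene span. Per kilobase of exon Smc4 was at 78.4 CPM and Smc2 at 43.02, the percentiles 95.6 and 91.3 of 14879 genes whose symbol had a unique match. Smc4 was 1.82 times Smc2 (interval 1.73 to 1.92). On the other scales the ratio ran from 1.61 per kilobase of coding length to 2.84 per kilobase of gene span. The proteins pair 1 to 1 in the ring, and their mRNA levels were unequal on all 6 scales examined.

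Smc2 and Smc4 carry the Walker A site, the loop that binds the phosphates of ATP, near their amino ends. The codons for it are shown because this site is what makes the shared pair the motor of both complexes. They were found by translating the longest reading frame of the GENCODE M21 transcripts, whose lengths, 1191 codons for Smc2 and 1286 for Smc4, matched the annotated coding lengths. The site covered codons 32 to 39 of Smc2 and 111 to 118 of Smc4, and 20 of its 24 bases were the same in both. Capitals mark the codons of the site, with 18 bases on either side.
Smc2: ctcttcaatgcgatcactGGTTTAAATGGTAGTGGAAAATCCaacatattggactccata
Smc4: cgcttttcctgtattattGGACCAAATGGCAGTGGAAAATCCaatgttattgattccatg

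The kleisin genes stood in the opposite order to the other subunits. Ncaph2, the kleisin of condensin II (chromosome 15, 89355719 to 89372826, plus strand), had 2872 counts, or 287 CPM (276 to 297). Ncaph, the kleisin of condensin I (chromosome 2, 127103809 to 127133954, minus strand), had 1203 counts, or 120 CPM (113 to 127). Per kilobase of exon, Ncaph2 was at 68.3 CPM and Ncaph at 27.9 CPM. Ncaph2 was therefore 2.45 times Ncaph (interval 2.29 to 2.62). Across the other scales this ratio ran from 1.95 per kilobase of the longest transcript to 4.21 per kilobase of gene span, with Ncaph2 higher on each.

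The G subunits, HEAT-repeat proteins that bind the kleisin, were higher for condensin I. Ncapg (chromosome 5, 45669919 to 45700546, plus strand) had 1168 counts, or 117 CPM (110.0 to 123). Ncapg2 (chromosome 12, 116405402 to 116463731, plus strand) had 648 counts, or 64.7 CPM (59.8 to 69.9), the lowest count of the 8. Per kilobase of exon Ncapg was at 16.5 CPM and Ncapg2 at 6.51. Ncapg was 2.54 times Ncapg2 (interval 2.30 to 2.80), and on the other scales from 1.80 times in CPM to 3.43 times per kilobase of gene span.

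The D subunits, the other HEAT-repeat proteins, differed most between the complexes on this scale. Ncapd2 (chromosome 6, 125168007 to 125191701, minus strand), the condensin I member, had 2537 counts, or 253 CPM (243 to 263). Ncapd3 (chromosome 9, 27030175 to 27095315, plus strand), the condensin II member, had 740 counts, or 73.9 CPM (68.6 to 79.4). Per kilobase of exon Ncapd2 was at 40.4 CPM and Ncapd3 at 9.36. Ncapd2 was 4.32 times Ncapd3 (interval 3.98 to 4.69), and 4.07 times per kilobase of the longest transcript but 9.43 times per kilobase of gene span.

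**Figure D2:**
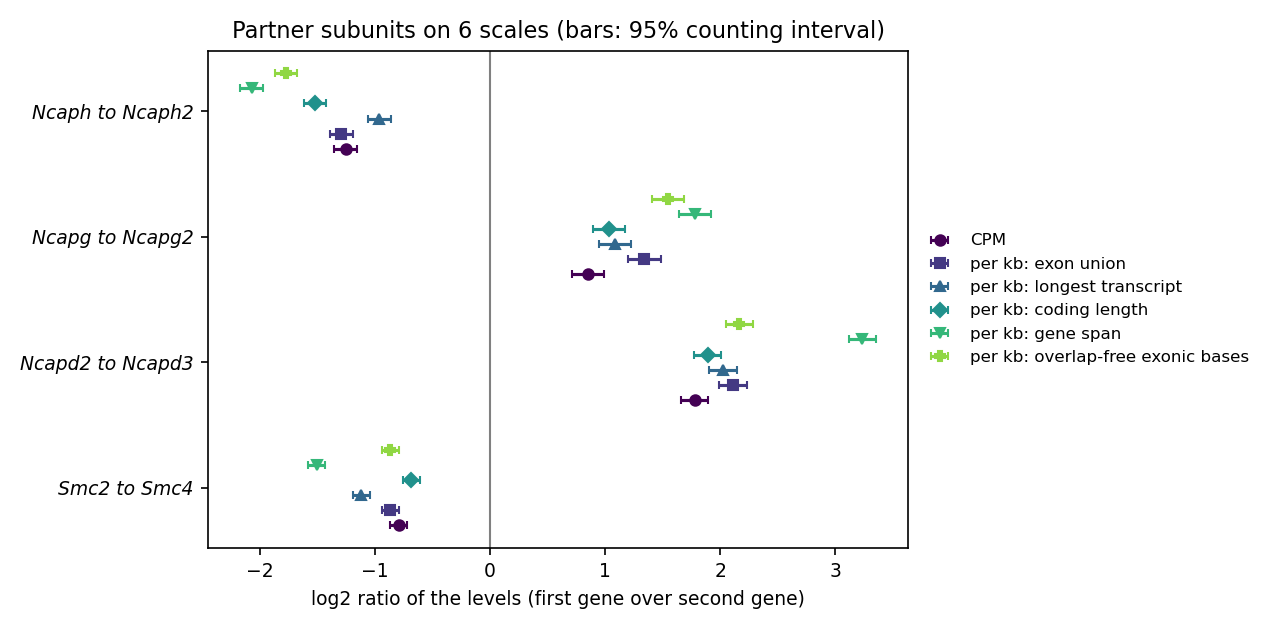
Log2 ratios between partner subunits on 6 scales: CPM, and CPM per kilobase of 5 kinds of length. Points are ratios and bars are 95% counting intervals. Ncaph to Ncaph2 and Smc2 to Smc4 lie below 0 on every scale, and Ncapg to Ncapg2 and Ncapd2 to Ncapd3 above it.

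Summed over their own 3 subunits, which complex was higher turned on the length used, and the sums were made up differently. Per kilobase of exon the condensin I genes summed to 84.8 CPM and the condensin II genes to 84.2. Their ratio was 1.01 (0.966 to 1.05, a normal approximation to the counting error), and per kilobase of gene span it was 0.973 (0.931 to 1.02), so neither scale separated them. Condensin I was higher in CPM, at 1.15 (1.11 to 1.20), and per kilobase of the longest transcript, at 1.13 (1.08 to 1.18). Condensin II was higher per kilobase of coding length, at 0.801 (0.767 to 0.836), and of overlap-free exon, at 0.800 (0.766 to 0.835). For overlap-free exon the whole count of a gene was divided by its exonic length outside other annotated genes. Ncaph2 alone made up 81.1% of the condensin II sum, whereas Ncaph made up 32.9% of the condensin I sum. Without the kleisin pair, condensin I was 3.59 times condensin II, and the medians of the 3 subunits, 27.9 and 9.36 CPM per kilobase, had a ratio of 2.98. Within condensin I the highest gene was 2.45 times the lowest, and within condensin II it was 10.5 times. This range was narrower in condensin I on each of the 6 scales, at most 2.81 against at least 4.43 in condensin II, on 1 value per gene and with no test over genes.

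The order of the 8 levels per kilobase of exon was Smc4, Ncaph2, Smc2, Ncapd2, Ncaph, Ncapg, Ncapd3 and Ncapg2. Each neighbour in it differed beyond its counting interval, most narrowly Smc2 over Ncapd2 with a ratio of 1.06 (1.01 to 1.13). Per kilobase of the longest transcript, Ncaph and Smc2 had a ratio of 1.02 (0.952 to 1.10) and Ncapg2 and Ncapd3 one of 1.03 (0.924 to 1.14), so neither pair was ordered there. Ncaph2 took the first place per kilobase of coding length, of gene span and of overlap-free exon, and Smc4 the first on the other scales. The spread between libraries is unknown, so these orders hold for this column alone.

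A condensin ring of either kind uses 1 copy of each Smc protein, so the mean of the Smc pair was set against the sum of the condensin I mean and the condensin II mean. Per kilobase of exon these were 60.7 and 56.3 CPM, a ratio of 1.08 (1.04 to 1.11). The direction rested on the scale, as the ratio was under 1 on the other length scales: 0.910 over overlap-free exon, 0.855 per kilobase of the longest transcript, 0.744 of coding length and 0.740 of gene span. It also rested on Smc4 per kilobase of exon, since Smc2 alone gave 0.764 and Smc4 alone 1.39. Neither side was higher across all of these settings.

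Other annotated genes overlapped the exons of 3 members. The share of all genes with such an overlap is not given here, so this count describes the members only. At Ncaph2, 28.3% of the exonic bases lay under Sco2 or Tymp, which run on the opposite strand past its end. Sco2 was not listed and Tymp had 4 counts. At Ncapg, 13.4% lay under Lcorl, also on the opposite strand, with 215 counts, and at Ncapd2 3.78% lay under the small RNA gene Scarna10. With its whole count divided by its exonic bases free of any other gene, Ncaph2 was at 95.3 CPM per kilobase and 3.42 times Ncaph. Reads over those free bases were not counted separately. Whether reads from the shared stretch were counted for Ncaph2, for its neighbours or for none is not stated in the labels or the file, and their part in its level was not tested. Of all 50-base words in the annotated transcripts of Ncaph2, 22.6% also occurred, on either strand, in transcripts of other genes, mostly Sco2. The same share was 11.8% for Ncapg and 2.92% for Ncapd2, and at most 0.772% for the other 5 members.

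**Figure D3:**
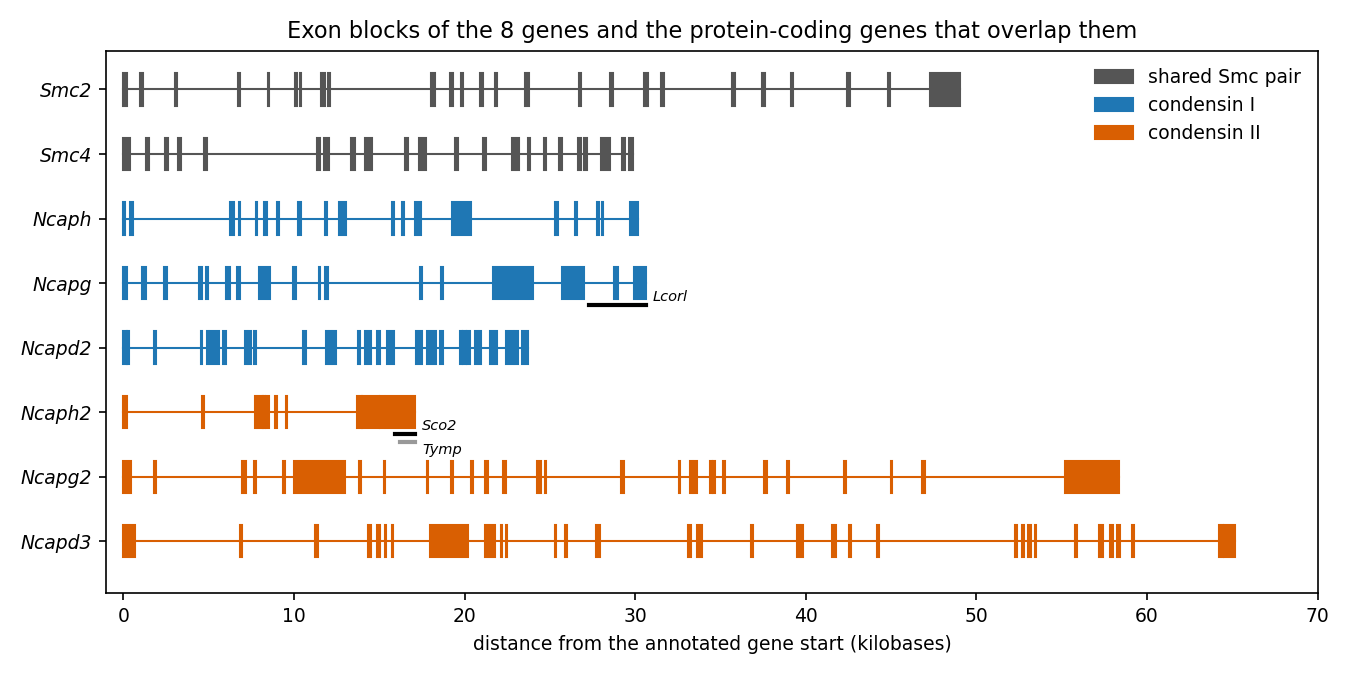
Exon blocks of the 8 genes, drawn to scale from each annotated gene start in kilobases, with introns as lines. Black and grey lines mark the protein-coding genes that overlap a member. Sco2 and Tymp lie under the last exon block of Ncaph2, and Lcorl under the end of Ncapg.

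The genes differed in their neighbourhoods. A protein-coding gene started on the opposite strand within 1000 bases upstream of 4 members. These were Ift80 at 168 bases from Smc4, Mrpl51 at 100 from Ncapd2, Lmf2 at 60 from Ncaph2 and Vps26b at 110 from Ncapd3. The share of all genes with such a neighbour was not computed, so this count describes the members only. Ift80, an intraflagellar transport gene, had 125 counts beside 4093 for Smc4, and Lmf2 had 425 beside 2872 for Ncaph2. Mrpl51, a mitochondrial ribosomal protein gene, and Vps26b, a retromer gene, had 926 counts each, beside 2537 for Ncapd2 and 740 for Ncapd3. An intron of Smc4 also holds the microRNA genes Mir15b and Mir16-2, which the table of protein-coding genes did not include.

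Promoters of 7 members were found in the RefSeq table for GRCm38.p6, which spans 250 bases before to 50 after each start, and Ncapd3 had 2. Smc4 was the member with no entry. Promoters of genes made in G2 and mitosis often carry a cell cycle homology region, with the letters TTTGAA, and CCAAT boxes. TTTGAA was present on either strand in 5 of 8 windows (Smc2, Ncapg, Ncapd2, Ncapg2 and the downstream one of Ncapd3), against 16.0% of 21263 promoters of protein-coding genes. CCAAT was present in 3 of 8 windows (Smc2, Ncapg and Ncapd2), against 38.2%. The E2F letters GGCGGGAA were found in Ncapg2 alone, against 2.85%, and GCGCGAAA in no window, against 0.452%. Neither kleisin promoter held TTTGAA, while Ncaph2 held the variant TTCGAA, which 1.85% of promoters hold. The matches did not overlap one another, and a match describes the sequence and not a bound site. Apart from the downstream window of Ncapd3, with 39.7% G and C, the windows held 52.7% to 69.3% G and C, against a median of 56.3%.

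The kleisin promoters and the sites in the G subunit promoters are shown because these pairs stood in opposite orders. Any part of these letters in the levels was not tested. The kleisin windows cover the 150 bases before the start, at chr2:127133955-127134104 on the minus strand for Ncaph and chr15:89355569-89355718 on the plus strand for Ncaph2. The G subunit windows are 30 bases, at chr5:45669883-45669912 for Ncapg and chr12:116405406-116405435 for Ncapg2, both on the plus strand. TTTGAA began 30 bases before the start in Ncapg and 18 before it in Ncapg2. Capitals mark TTTGAA or TTCGAA, and the Ncaph window has none.
Ncaph: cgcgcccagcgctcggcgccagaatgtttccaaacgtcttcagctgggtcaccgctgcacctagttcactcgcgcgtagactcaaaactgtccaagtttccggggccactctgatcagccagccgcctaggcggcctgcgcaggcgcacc
Ncaph2: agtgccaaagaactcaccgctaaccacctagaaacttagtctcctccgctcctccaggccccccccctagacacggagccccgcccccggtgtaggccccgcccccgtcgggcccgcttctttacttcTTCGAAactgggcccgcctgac
Ncapg: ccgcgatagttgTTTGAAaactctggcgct
Ncapg2: tacgcgggtgtgTTTGAAtctggtccgagc

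Related complexes with the same architecture gave a scale for these levels. Cohesin, which holds sister chromatids together and forms loops, had all 7 genes of its list at CPM 1 or more, where 80.1% of listed genes stood, and a median of 13.4 CPM per kilobase of exon. The medians were 27.9 for condensin I and 9.36 for condensin II, and over all matched genes the median was 3.81. Rad21, the cohesin kleisin, was at 109 CPM per kilobase, so Ncaph2 was 0.627 times Rad21 (0.599 to 0.658) and Ncaph 0.256 times (0.240 to 0.273). Per kilobase of the longest transcript these ratios were 0.746 (0.712 to 0.781) and 0.383 (0.359 to 0.408). Among ATPase genes, Smc3 of cohesin was at 55.6, between Smc4 and Smc2, and Smc1a of cohesin at 31.3. Smc4 was 2.51 times Smc1a (2.37 to 2.65). In the Smc5/6 complex, which acts in DNA repair, Smc5 was at 14.5 and Smc6 at 13.4 CPM per kilobase, with Smc2 2.96 times Smc5 (2.75 to 3.20) and 3.21 times Smc6 (3.01 to 3.42). Per kilobase of the longest transcript Smc6, at 29.9, was above Smc5, at 17.3, and Smc2 was 1.46 times Smc6 (1.37 to 1.55). Of its 7 genes, Nsmce3, Nsmce4a and Eid3 were not listed. Each of these lies wholly inside another annotated gene (Fam189a1, Fgfr2 and Txnrd1), as does the phosphatase gene Ppp2ca (in Gm26551), which was listed with 2652 counts.

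**Figure D4:**
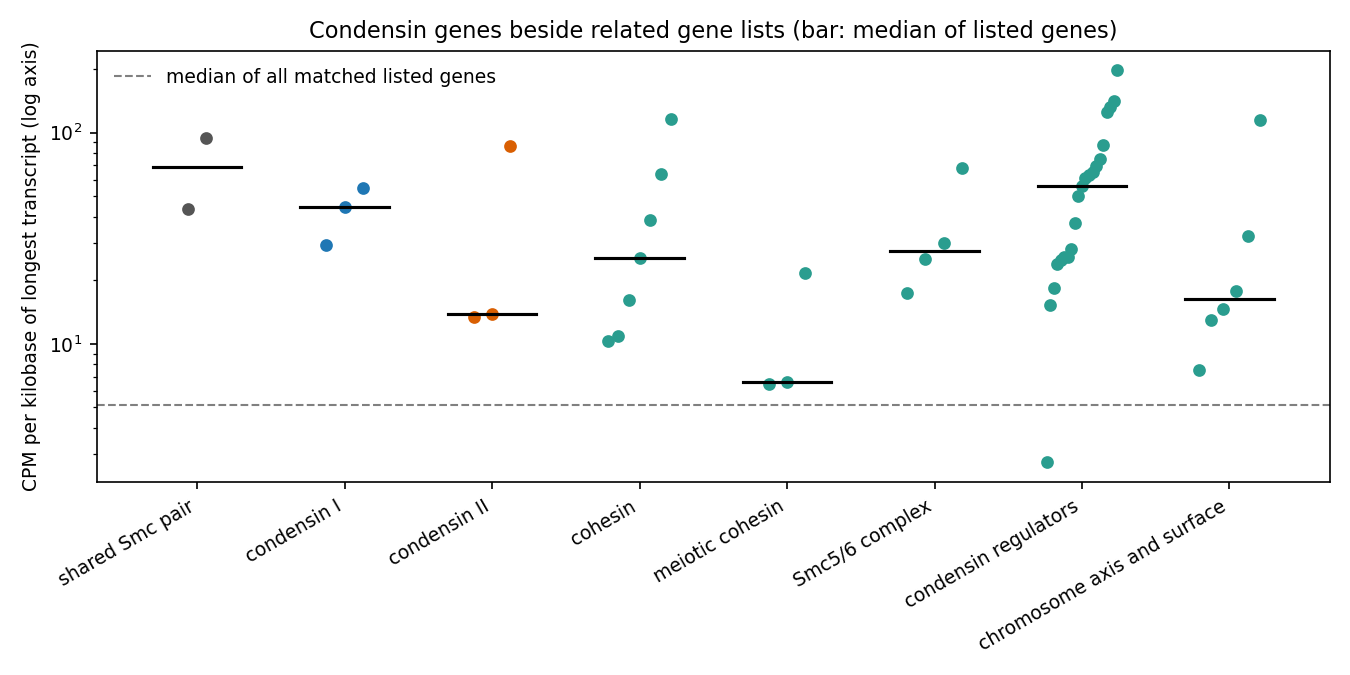
CPM per kilobase of the longest annotated transcript (log axis) for condensin genes and related lists. Each point is 1 gene, black bars are medians of the listed genes and the dashed line is the median of all matched genes. Within condensin II, Ncaph2 stands at 86.8, far above Ncapg2 at 13.8 and Ncapd3 at 13.4.

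Of 21 genes that regulate condensin, all were at CPM 1 or more, against 80.1% of listed genes, and 15 at CPM 100 or more, against 15.5%. Their median was 167 CPM. Cdk1, the mitotic kinase that phosphorylates condensin, had 2756 counts, and its cyclin Ccnb1 had 3318. Plk1, a kinase that acts on condensin II, had 1531 counts, and Aurkb, whose activity helps load condensin I, had 1188. Ppp2r1a, the scaffold of phosphatase 2A, was the highest with 4768. Mcph1, the microcephaly protein that restrains condensin II, had 712 counts and was at 9.10 CPM per kilobase of exon, with 22.8% of its exonic bases under another gene. Rb1, the retinoblastoma gene, was the lowest with 128 counts, and 59.7% of its exonic bases lay under another gene. In the chromosome axis and surface list, Top2a, the topoisomerase that shares the mitotic chromosome axis with condensin, had 6011 counts and was at 66.6 CPM per kilobase of exon, near Ncaph2. Per kilobase of the longest transcript Top2a was at 115, above Ncaph2 at 86.8. The others of that list were Mki67 with 1476 counts, Nusap1 with 1142, the chromokinesin gene Kif4 with 893, Top2b with 779 and Kif22 with 466. Another gene lay over 58.6% of the exonic bases of Kif22, 35.4% of Top2b, 15.1% of Kif4 and 4.24% of Nusap1.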

How the data were processed

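Poly(A) RNA of 2 libraries was measured. The deposited file, per its header, gives each gene symbol a raw count, in 1 column of 15127 protein-coding genes, from 1 to 117610 and summing to 10017978. Trimmomatic 0.38, HISAT2, SAMtools and featureCounts (Subread 1.6.4) were used on GRCm38.p6, per the submitters' processing notes. The strand setting and the counted feature are not stated there. The file's rows, over 14879 genes, are in the order of count divided by gene span (rank correlation 0.9999). Whole genes rather than exons may therefore have been counted. The main ratios among the members are also given per kilobase of gene span. Levels and ratios of the related genes were not computed on that length.

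Counts were scaled to CPM and divided by lengths from GENCODE M21 (GRCm38). Ratios of sums had delta-method intervals. The rule named all members and, of each list, the highest, the lowest detected and the unlisted genes, and allowed the others. Members and lists were chosen with earlier results of these data known. With 1 column there was no test between groups, and replicate alternatives could not be computed. The Poisson and binomial intervals were tested on simulated data. The work ran on Biopython 1.88, matplotlib 3.10.9, pandas 2.3.3, scipy 1.17.1 and numpy 2.4.6 under Python 3.11.15.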

Additional observations from a re-analysis of the deposited data

How the results depend on the processing

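Partner ratios kept their direction on every scale. All 8 members, like 80.1% of the listed genes, were at CPM 1 or more, and all 8 stayed detected at CPM 0.5, 5 and 10 and at 10 counts. The shares of all listed genes at those other levels were not computed, so these counts set the members apart from no other genes. The median level of the members, 34.1 CPM per kilobase of exon, was 44.1, 57.7 and 4.40 per kilobase of longest transcript, coding length and gene span, and 37.0 or 37.8 with the 20 highest or the ribosomal protein genes left out of the total. On those same 3 lengths, Ncaph to Ncaph2 was 0.513, 0.348 and 0.238, Ncapg to Ncapg2 2.12, 2.04 and 3.43, Ncapd2 to Ncapd3 4.07, 3.71 and 9.43, and Smc2 to Smc4 0.461, 0.623 and 0.352. In CPM, Ncapg to Ncapg2 was 1.80 and Ncapd2 to Ncapd3 3.43. Over overlap-free exon, a length added for the ratios after the data were seen, Ncaph to Ncaph2 was 0.293 and Ncapg to Ncapg2 2.93.

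Condensin I to condensin II, 1.01 per kilobase of exon, was 1.15 in CPM, 1.13 per longest transcript, 0.801 per coding length, 0.800 over overlap-free exon and 2.98 by medians. Without the kleisin, G or D pair it was 3.59, 0.879 or 0.593. The Smc ratio turned from 1.08 to 0.855, 0.744 and 0.740 on the 3 lengths, 0.910 over overlap-free exon (also added later) and 0.764 with Smc2 alone, and was 1.39 with Smc4 alone. These shifts follow from the lengths or genes each setting used. Scaling by the upper quartile leaves ratios as they are. Leaving out a library was not possible, as the column names none. No paired analysis was possible because there was 1 group and the column carries no replicate number. Protein identity was not run, as no protein table was used here. Counting error, at most 7.78% of a member's count, is the only error these data give.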

Other observations

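Of the 4 meiotic cohesin genes, 3 were listed and at CPM 1 or more, where 80.1% of all listed genes also stood. At CPM 100 or more stood 0 of them, against 15.5% of the listed genes. Rec8, the meiotic kleisin, had 475 counts, Stag3 302 and Smc1b 267, while Rad21l was not listed. Per kilobase of exon Smc1b was at 6.59 CPM, close to the 6.51 of Ncapg2. Per kilobase of the longest transcript the 2 genes were apart, at 6.59 for Smc1b and 13.8 for Ncapg2, as they were in CPM, at 26.7 and 64.7. Smchd1, an SMC-hinge protein that acts in X inactivation, had 1032 counts. Per kilobase of exon it was at 5.16 CPM, below all 8 condensin genes. Per kilobase of the longest transcript it was at 14.6, near Ncapg2 at 13.8 (12.8 to 14.9) and Ncapd3 at 13.4 (12.5 to 14.4). No ratio to them was computed for Smchd1, so these genes were not ordered there. Of the exonic bases of Smchd1, 66.4% lay under another annotated gene.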
